A study of Mus musculus with 6 samples.

Results

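Collagen chain genes were taken as all genes whose symbol in the platform annotation has the form Col, a type number, a and a chain number, which gave 44 of the 22180 genes measured. They were measured on 6 Affymetrix Mouse Gene 2.0 ST arrays. All samples are KP1 cells, a line of small cell lung cancer grown from a mouse tumor model without Rb, p53 and p130. In the N1ICD group (3 arrays) the cells carried activated Notch1, its intracellular domain, expressed together with GFP through an ires. In the control group (3 arrays) they carried the empty ires-GFP vector. Both groups were sorted for GFP-positive cells 48 hours after transfection, so they share the knockout background, the transfection and the sort. KP1 is a single cell line, the labels call the samples biological replicates, and they do not name the promoter that drives the insert.

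Collagens are matrix proteins whose chains carry a glycine at regular steps and wind around each other into a helix. Fibrillar collagens form the ropes of connective tissue, and type IV collagens form the sheet-like net of basement membranes. Fibril-associated, beaded, network-forming, multiplexin and membrane-spanning collagens decorate, link or anchor these structures. The Notch1 intracellular domain acts in the nucleus with the DNA-binding protein RBPJ. Fibroblasts are the main source of fibrillar collagen in lung, while epithelial and endothelial cells also make type IV collagen.

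The annotated start sites of Col4a1 and Col4a2 are shown first because both genes rose and are transcribed in opposite directions from a shared promoter region. In the RefSeq promoter table (build GRCm38.p6) the starts lie 21 bases apart, so that the annotated transcripts overlap at their first 22 bases. The stretch from the start of Col4a2 to that of Col4a1 is at chr8:11312805-11312826 on the plus strand. The capitals mark the base of each start, Col4a2 on the left and Col4a1, read from the minus strand, on the right.
Col4a2 and Col4a1 starts: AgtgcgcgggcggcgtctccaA

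The starts of Col4a6 and Col4a5, a second divergent pair of the type IV family, lie 1343 bases apart in that table. The core letters of the RBPJ motif, TGGGAA, were searched on both strands in windows of 300 bases, from 250 before to 50 after each start. Of 38 windows of 35 collagen genes, 12 held a match (31.6%), against 25.6% of all 32851 windows in the table. No other motif was searched. The matches of Col4a5 (chrX:141475326-141475355, plus strand), Col4a6 (chrX:141474118-141474147, minus strand) and Col18a1 (chr10:77113751-77113780, minus strand) are printed because these are basement membrane genes. Each is read 5′ to 3′ on the strand of its gene with the match, or its reverse complement, in capitals.
Col4a5: ttgccggtgcagTGGGAAgcactggcggag
Col4a6: aagagaagcagcTTCCCAaggtagggggag
Col18a1: agggaaggagacTGGGAAccaggaatgagg

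The 3 windows of Col4a1, Col4a2 and Col23a1, which rose, held 0 matches, and Col2a1 was not searched. Col4a5 and Col4a6 held a match each and were not called. The windows of Col4a4 and Col15a1, also basement membrane genes that were not called, held 0 matches, as did a second window of Col18a1. A match describes letters only, and the absence of one says nothing of RBPJ at that gene.

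Of the 44 collagen chains, 4 rose in N1ICD cells and 0 fell. They were Col23a1, Col4a2, Col4a1 and Col2a1, with log2 changes of 1.84, 0.72, 0.60 and 0.53. A chain was called when its adjusted p in limma, fitted and adjusted over all 22180 genes, was under 0.05. By the same rule 7.10% of all genes were called, 3.82% higher and 3.27% lower, against 9.09% of the collagen chains. The share called in either direction thus lay near that of all genes. All 4 called chains were higher, so in that direction 9.09% stands beside 3.82%. This difference rests on 4 genes, and an excess was not tested. At an unadjusted p under 0.05, 6 of the 44 chains were higher and 1, Col8a1, was lower. Of all 22180 genes, 1924 were higher and 2484 lower at that threshold. The median log2 change was 0.03 over the 44 chains and -0.02 over all genes.

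In 9 chains (20.5%) the 3 arrays of one group lay beyond the 3 of the other, against 26.1% of all genes. In 8 of them the N1ICD arrays lay above, a direction that 11.1% of all genes had, and in 1 they lay below, against 15.0%. Of the chains, 38 had a mean in control cells below every array median, which ran from 6.14 to 6.24 in log2 expression over genes. Background was not measured, and RMA, the normalization of these values, compresses changes of dim genes. A rise or fall per cell and a change in the number of cells of some type cannot be told apart in these bulk samples. The dot plot of each chain sets the sizes side by side by class.

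**Figure D1:**
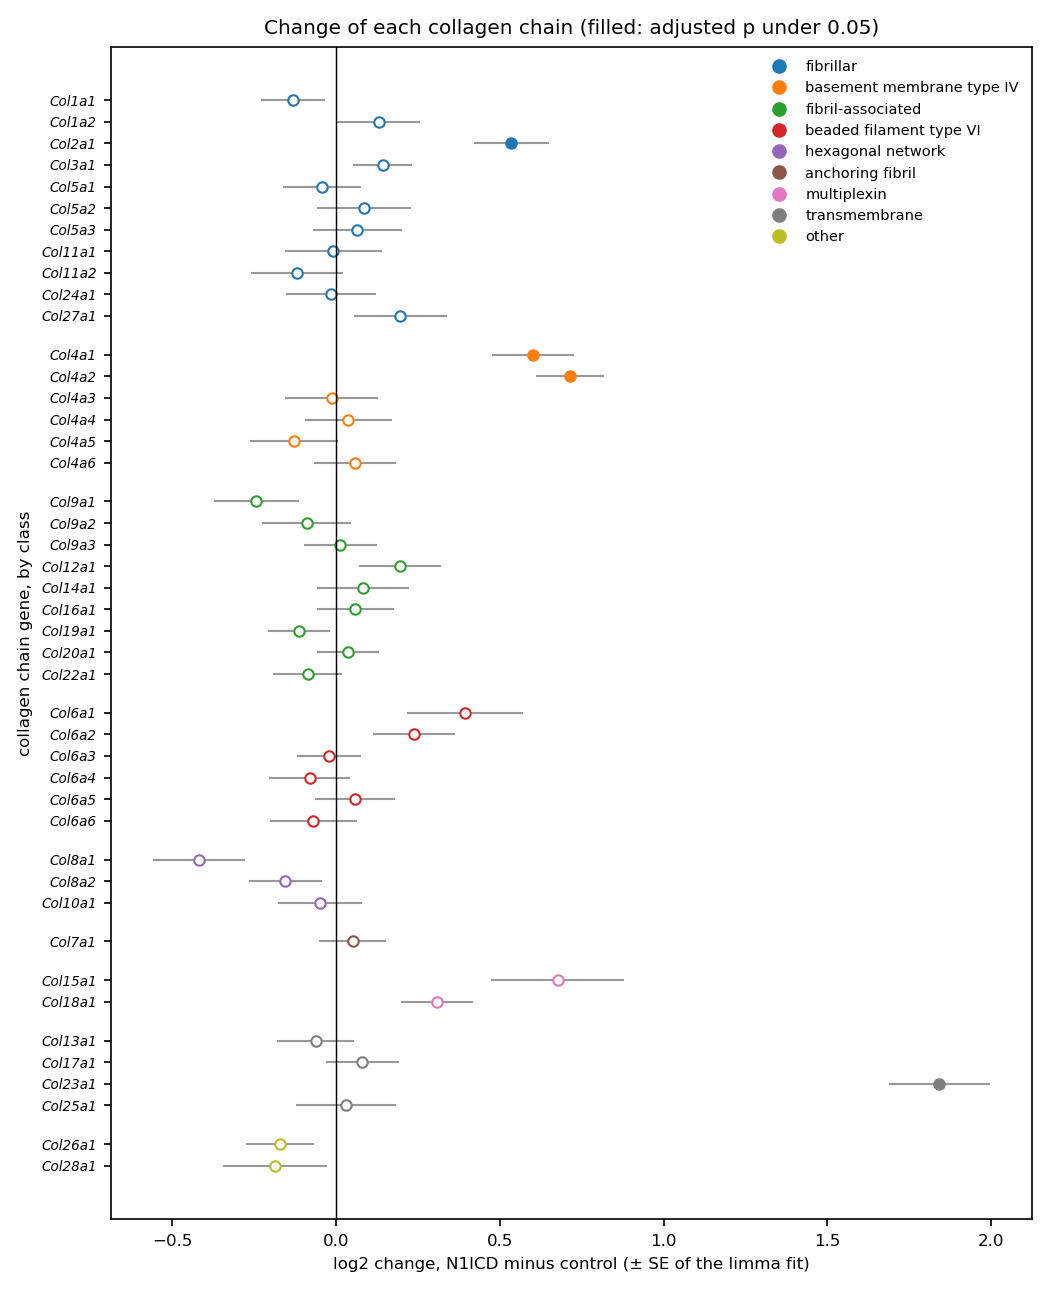
Log2 change of each of the 44 collagen chains, N1ICD minus control, with the SE of the fit as bars (3 arrays per group), ordered by class. Filled points passed an adjusted p of 0.05: Col23a1 at 1.84, Col4a2 at 0.72, Col4a1 at 0.60 and Col2a1 at 0.53.

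Among the 6 type IV chains, Col4a1 and Col4a2 rose and the other 4 did not pass the test. These genes encode the chains of the net found in nearly all basement membranes. Col4a2 had a log2 expression of 7.45, 7.47 and 7.64 in N1ICD arrays, against 6.70, 6.82 and 6.90 in control arrays. Col4a1 had 7.56, 7.91 and 7.70 in N1ICD arrays, against 7.14, 7.26 and 6.97 in control arrays. For both genes every N1ICD array lay above every control array.

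Col4a2 rose 1.64-fold (log2 change 0.72 ± 0.10 SE, limma adjusted p = 0.00497), and its call was kept in each fit without 1 array (highest adjusted p = 0.0234). Col4a1 rose 1.52-fold (0.60 ± 0.13, limma adjusted p = 0.0261). Its call was lost without N1ICD replicate 2, N1ICD replicate 3, control replicate 1 or control replicate 3 (adjusted p up to 0.0951). Within an array, Col4a1 minus Col4a2 was 0.11, 0.44 and 0.06 in N1ICD arrays and 0.44, 0.44 and 0.07 in control arrays on the log2 scale. The ranges of this difference overlapped.

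Col4a3, Col4a4, Col4a5 and Col4a6 encode chains of more restricted basement membranes, such as that of the kidney glomerulus. Their log2 changes lay between -0.13 and 0.06, and the N1ICD and control arrays overlapped for each. Their mean log2 expression lay between 4.65 and 5.22 in N1ICD cells and between 4.78 and 5.17 in control cells, below every array median. A difference between the changes of these 4 genes and those of Col4a1 and Col4a2 was not tested.

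The multiplexins Col15a1 and Col18a1, proteoglycan collagens of the basement membrane zone, were both higher in all N1ICD arrays, but neither passed the test. Col18a1 is the source of endostatin, a fragment that restrains vessel growth. Col15a1 had 6.42, 5.97 and 5.66 in N1ICD arrays, against 5.62, 5.13 and 5.27 in control arrays. Its log2 change of 0.68 lay between those of Col4a2 and Col4a1, but its SE was 0.20 (limma adjusted p = 0.0992). Col18a1 had 5.28, 5.30 and 5.07 in N1ICD arrays, against 5.04, 4.80 and 4.89 in control arrays (log2 change 0.31 ± 0.11, limma adjusted p = 0.165). The spread over the N1ICD arrays of Col15a1 (SD 0.38, n = 3) was wider than that of Col18a1 (SD 0.13).

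Col23a1, a membrane-spanning collagen whose outer part can be shed from the cell surface, had the largest change of the 44 chains. Its log2 expression was 8.90, 9.02 and 8.97 in N1ICD arrays, against 6.83, 7.09 and 7.45 in control arrays. The N1ICD arrays lay close together (mean 8.96 ± 0.06 SD), and the control arrays were spread more widely (7.12 ± 0.31 SD, n = 3 each). It rose 3.59-fold (log2 change 1.84 ± 0.15 SE, 95% interval 1.49 to 2.20, limma adjusted p = 0.000266). Without any 1 array its log2 change stayed between 1.69 and 2.01 and its call held (highest adjusted p = 0.00299). An exact permutation test (two-sided) of each called chain, over the 20 ways to divide the 6 arrays, gave p = 0.1, the smallest value this design can reach.

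The other membrane-spanning chains were not called and had means below every array median in control cells. They are Col13a1, found at cell contacts, Col17a1, part of the hemidesmosome, and Col25a1, a neuronal collagen. Their log2 changes lay between -0.06 and 0.08, and their groups overlapped.

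**Figure D2:**
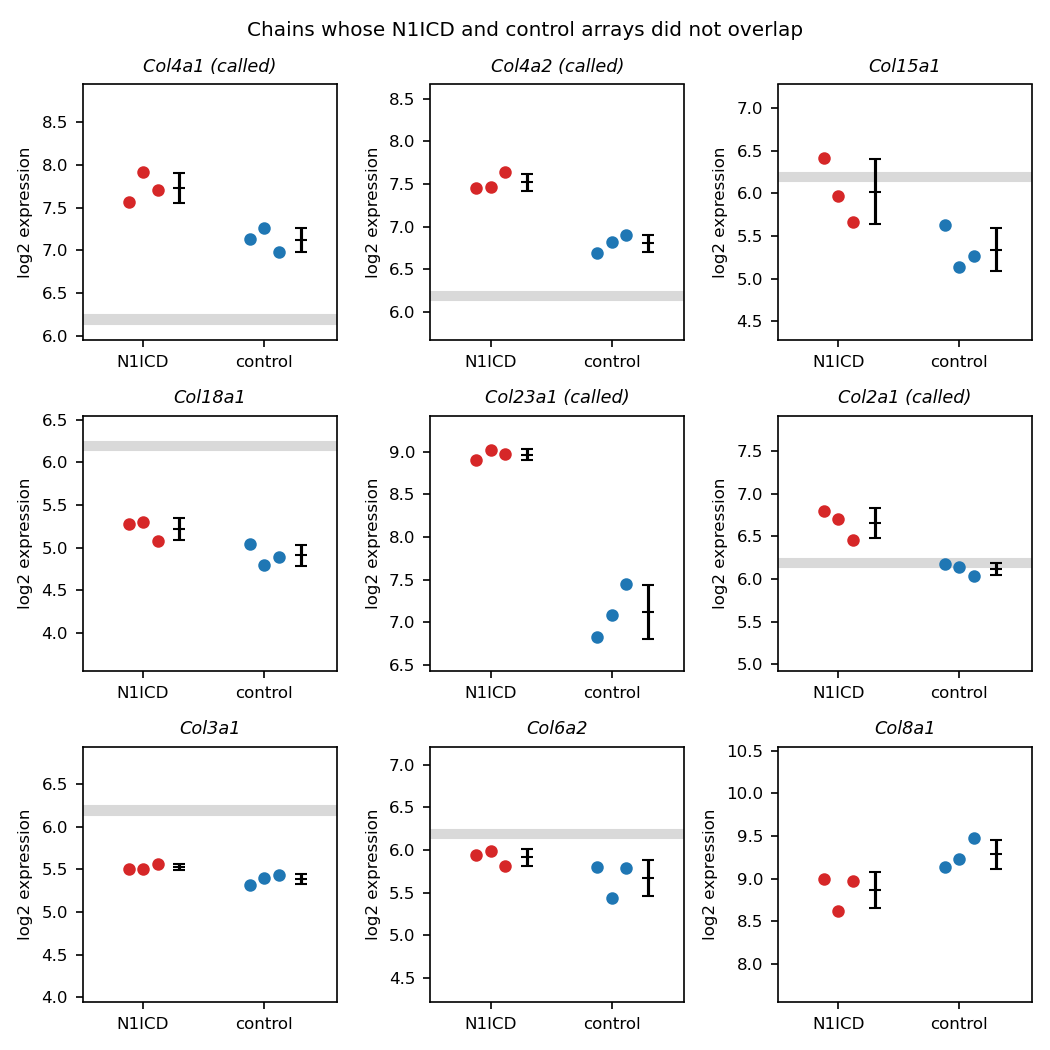
Log2 expression of the 9 chains whose groups did not overlap: each point is 1 array, N1ICD left and control right, with the group mean and SD (n = 3) beside the points, and every panel spans 3 log2 units. The grey band is the range of the array medians, 6.14 to 6.24; Col23a1 stands out by the gap between 8.90 in its lowest N1ICD array and 7.45 in its highest control array.

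Fibrillar collagens showed 1 rise among 11 chains, and 0 fell, also at an unadjusted p under 0.05. The median log2 change was 0.06 for the 11, against 0.05 for the 6 type IV chains and 0.01 for the 27 chains of neither class. All 11 had means below every array median in control cells. In type I, the main collagen of scar and bone, Col1a1 had 5.83, 6.04 and 5.93 in N1ICD arrays, against 6.11, 6.02 and 6.07 in control arrays. Col1a2 had 5.71, 5.40 and 5.30 in N1ICD arrays, against 5.38, 5.23 and 5.40 in control arrays. Both genes overlapped between groups, with 95% intervals of the log2 change of -0.36 to 0.09 for Col1a1 and -0.16 to 0.42 for Col1a2.

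Col2a1, the cartilage collagen, was the fibrillar chain that rose. It had 6.80, 6.70 and 6.46 in N1ICD arrays, against 6.18, 6.14 and 6.04 in control arrays, a 1.45-fold rise (log2 change 0.53 ± 0.11 SE, limma adjusted p = 0.0295). Its N1ICD mean of 6.65 lay above the array medians and its control mean of 6.12 just below them. The call was lost in every fit without 1 array except that without N1ICD replicate 3 (adjusted p up to 0.113, without N1ICD replicate 2).

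Col3a1, which accompanies type I collagen in soft tissue, had 5.51, 5.50 and 5.56 in N1ICD arrays, against 5.32, 5.40 and 5.43 in control arrays. Its arrays did not overlap, but the log2 change of 0.14 ± 0.09 did not pass the test (limma adjusted p = 0.449). The type V and XI chains regulate the width of fibrils. Col5a1, Col5a2, Col5a3, Col11a1 and Col11a2 had log2 changes of -0.04, 0.09, 0.06, -0.01 and -0.12. The fibrillar chains Col24a1 and Col27a1 had -0.02 and 0.20. None of these 7 genes was called, and the groups of each overlapped.

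Fibril-associated collagens, which sit on the surface of fibrils, showed 0 calls among 9 chains at the adjusted threshold and 0 at an unadjusted p under 0.05. The groups overlapped for all 9. Col9a2, a chain of the type IX collagen of cartilage, had 7.49, 7.47 and 7.16 in N1ICD arrays, against 7.62, 7.50 and 7.26 in control arrays (log2 change -0.09 ± 0.14). It was the member of this class whose control mean lay above the array medians. The largest log2 changes of the class were -0.24 for its partner chain Col9a1 and 0.19 for Col12a1, a collagen of tendon and periosteum.

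Type VI collagen, which forms beaded filaments around cells, showed 0 calls among 6 chains, also at an unadjusted p under 0.05. Col6a1 and Col6a2 encode chains that assemble with Col6a3. Col6a1 had 6.10, 6.51 and 6.70 in N1ICD arrays, against 6.23, 5.78 and 6.12 in control arrays, a log2 change of 0.39 ± 0.18 (limma adjusted p = 0.269). A second probe set of Col6a1 had 0.29. Col6a2 had 5.94, 5.99 and 5.81 in N1ICD arrays, against 5.80, 5.43 and 5.79 in control arrays (0.24 ± 0.13, limma adjusted p = 0.353). The arrays of Col6a2 did not overlap, while those of Col6a1 did. Col6a3 had a log2 change of -0.02, and Col6a4, Col6a5 and Col6a6 lay between -0.08 and 0.06.

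Col8a1, a chain of a hexagonal net known from vessel walls and the cornea, was the single chain that was lower in all N1ICD arrays. It had 9.00, 8.62 and 8.98 in N1ICD arrays, against 9.14, 9.23 and 9.48 in control arrays. The fitted log2 change of -0.42 ± 0.14 (95% interval -0.74 to -0.10) did not pass the adjusted test (limma adjusted p = 0.132). Col8a2, with which it can assemble, had -0.16 and the growth plate collagen Col10a1 -0.05, both with overlapping groups. The anchoring fibril gene Col7a1 had 0.05, and Col26a1 and Col28a1 had -0.17 and -0.19. None of these 6 chains was called.

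**Figure D3:**
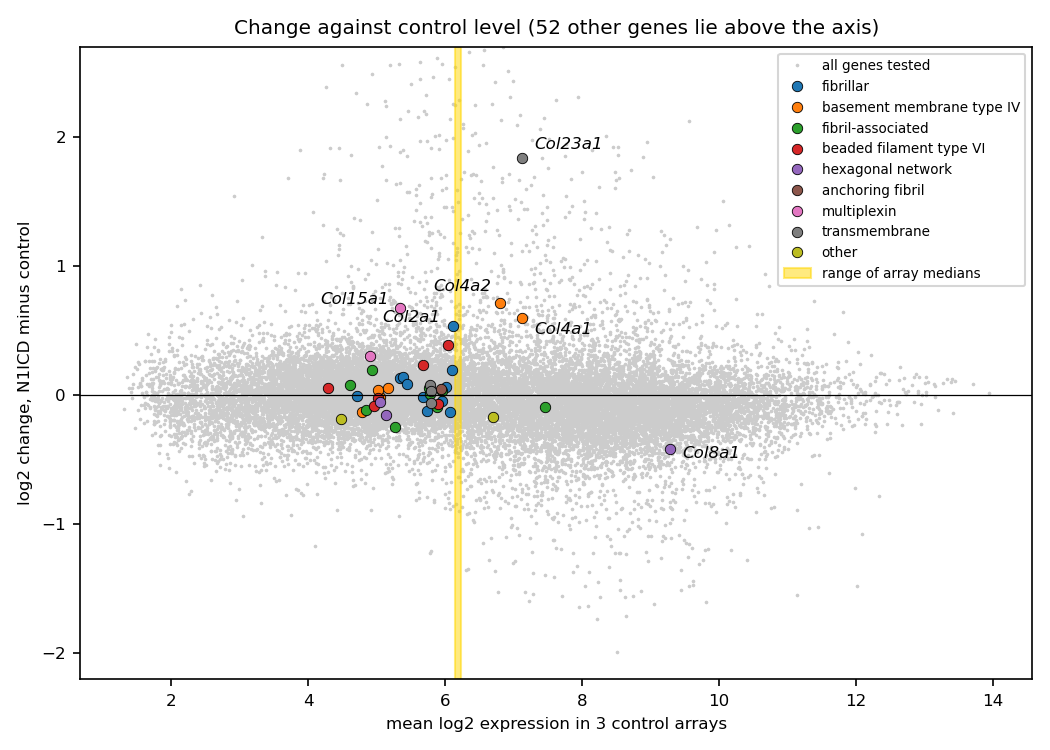
Log2 change, N1ICD minus control, of each gene against its mean log2 expression in 3 control arrays; grey points are all genes tested and coloured points are the collagen chains by class. Of the 44 chains, 38 lie left of the band of array medians (6.14 to 6.24), and 52 other genes with changes beyond the upper end of the axis are not drawn.

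Genes that act on collagen were counted in 6 lists, beside the 7.10% of all genes called. Before adjustment, 1924 of the 22180 genes were higher and 2484 lower at a p under 0.05. Among 23 genes that modify or fold collagen chains in the endoplasmic reticulum, 2 rose and 0 fell. At an unadjusted p under 0.05, 4 were higher and 2 were lower. Of the higher 4, Colgalt2 and Sec23a were not called (0.59 and 0.36). The lower 2 were P3h2 and the collagen galactosyltransferase Colgalt1 (-0.36 and -0.33). Colgalt1 was called with dim genes left out (adjusted p = 0.0256) and with an intensity trend and robust eBayes in limma (adjusted p = 0.0252). Plod2, the lysyl hydroxylase that prepares stable crosslinks, rose by 1.16 ± 0.19 on the log2 scale (limma adjusted p = 0.00855). P4ha2, a catalytic subunit of the prolyl hydroxylase that stabilizes the helix, rose by 0.90 ± 0.15 (limma adjusted p = 0.0105). Serpinh1, the collagen chaperone, had a change of 0.04 and a control mean of 5.40, below every array median. The list median was 0.15.

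Among 13 genes of procollagen cleavage and crosslinking, 2 rose and 2 fell (median 0.03). At an unadjusted p under 0.05, 2 were higher and 3 were lower. Of these 3, Bmp1 was not called (-0.49, limma adjusted p = 0.0964). With an intensity trend and robust eBayes in limma, 3 genes of the list were called lower. Pxdn, the peroxidase that crosslinks type IV collagen, rose by 0.68 ± 0.09 (limma adjusted p = 0.00379) and Tgm2, a transglutaminase, by 0.79 ± 0.13 (limma adjusted p = 0.00859). Lox, the lysyl oxidase of fibrillar collagen, fell by 0.73 on the log2 scale, and Tll1, a procollagen proteinase, fell by 0.72. The call of Lox was lost without every array but control replicate 2 (adjusted p up to 0.169), with quantile normalization again (adjusted p = 0.0506) and with array weights (adjusted p = 0.0562). That of Tll1 was lost without N1ICD replicates 1 or 2 or control replicates 2 or 3 (adjusted p up to 0.086).

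Among 18 partners of type IV collagen in basement membranes, 6 rose and 0 fell, with a list median of 0.25. At an unadjusted p under 0.05, 9 members were higher and 1, Nid2 (-0.24), was lower. The collagen-binding protein Sparc rose by 4.23 ± 0.25, the proteoglycan Hspg2 by 0.79 ± 0.15 and the laminin chains Lama4 and Lama5 by 0.66 ± 0.12 and 0.60 ± 0.12. Lama2 (0.56) and the linker Nid1 (0.52), named after their values were seen, made up the count. The number of rises was 2 without control replicate 3, 3 without control replicate 2, and 4 without N1ICD replicates 1 or 2. Sparc and Nid1 kept their calls without any 1 array, whereas Lama5 kept its call only without N1ICD replicate 3 (adjusted p otherwise up to 0.0952).

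Among 18 partners of collagen fibrils, 3 rose and 0 fell (median 0.01). They were the matrix proteins Vtn (5.34) and Tnc (5.12) and the small proteoglycan Prelp (0.65 ± 0.11), whose call was lost with the mean over its probe sets. At an unadjusted p under 0.05, 6 members were higher, of which Tgfbi, Thbs1 and Comp were not called (0.68, 0.37 and 0.26). Dcn, the proteoglycan decorin, was the 1 member lower at that threshold (-0.65, limma adjusted p = 0.0752). In limma it was called with equal array medians (adjusted p = 0.041) and with an intensity trend and robust eBayes (adjusted p = 0.0394). Among 9 collagen receptor genes, 2 rose and 0 fell (median 0.18). Before adjustment, 4 were higher and 2 were lower at a p under 0.05. Of the higher 4, Itga2 (0.60, limma adjusted p = 0.051) and Gp6 (0.27) were not called. The lower 2 were the kinase Ddr2 (-0.49) and the endocytic receptor Mrc2 (-0.29), also not called. In limma, 3 genes of the list were called higher with an intensity trend and robust eBayes, with array weights and with the replicate number as a block. With dim genes left out 1 was called higher. The integrin chains Itga1 and Itga11 rose by 0.81 ± 0.17 and 0.72 ± 0.13. Without control replicate 3 neither was called (adjusted p = 0.0571 for Itga11), and Itga1 kept its call only without control replicate 1 (adjusted p otherwise up to 0.0873).

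Among 14 collagen-degrading enzymes and their inhibitors, 4 rose and 1 fell (median 0.11), and these calls held without any 1 array. Before adjustment, 5 were higher and 2 were lower at a p under 0.05. The collagenase Mmp13 rose by 3.40 ± 0.11 and the gelatinase Mmp2 fell by 1.45 on the log2 scale. The metalloproteinase inhibitors Timp3 and Timp4 rose by 1.25 ± 0.18 and 1.00 ± 0.14, as did Timp2 by 0.90 ± 0.14, named after its value was seen. Over the 6 lists 22 of 95 genes were called (23.2%). The lists were written by hand with earlier results of these data known, so this share is no test of an excess over all genes. Of the 22, 11 had control means below every array median. Among the 11 were Vtn, Tnc, Sparc, Mmp13, Timp3 and Timp4, with control means of 5.15, 5.10, 5.10, 5.24, 5.92 and 4.62, so their sizes hold for the RMA values. The strip plot of the 6 lists sets the called genes beside those that were not.

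**Figure D4:**
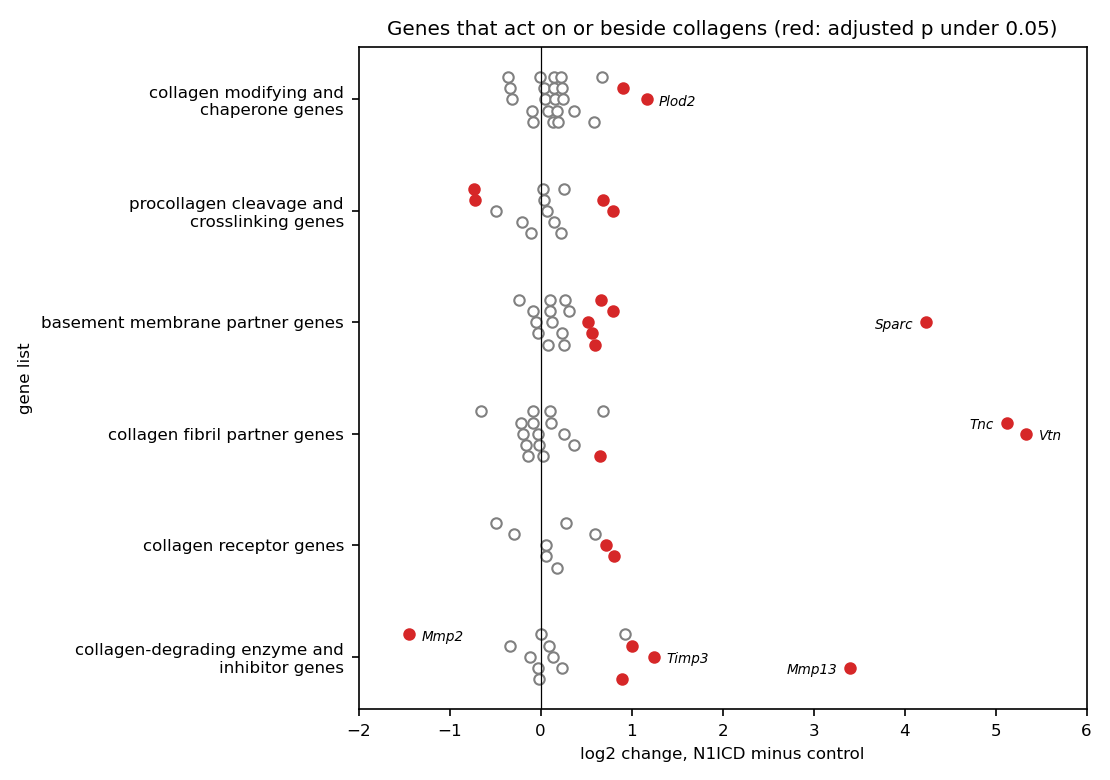
Log2 change, N1ICD minus control, of the measured genes of 6 lists, 1 point per gene, red where the adjusted p was under 0.05; points are shifted up and down within a list only to separate them. Vtn, Tnc, Sparc and Mmp13 lie between 3.40 and 5.34, and Mmp2 at -1.45 is the lowest red point.

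The transfected gene Notch1 rose by 1.59 ± 0.17 on the log2 scale (limma adjusted p = 0.000889) and its target Hey1 by 4.42 ± 0.12. The labels do not give the species of the insert, so RNA of the insert and of the cells' own Notch1 cannot be told apart in this value. All 12 measured neuroendocrine markers had control means above every array median, with Syp the lowest at 8.47. Of the 12, 3 rose, with log2 changes of 0.65 for Resp18, 0.64 for Chga and 0.53 for Ncam1, and 2 fell, Dll3 by 1.43 and Insm1 by 0.89 on the log2 scale. The call of Chga was lost without N1ICD replicates 1 or 3 or control replicates 2 or 3 (adjusted p up to 0.0638), and that of Ncam1 held only without control replicate 3 (adjusted p otherwise up to 0.0955). The median log2 change of the 12 was 0.04, and 6 of the 12 had a higher mean in N1ICD cells. The summed linear level of the 12 was 17755 to 19445 in N1ICD arrays and 16320 to 16757 in control arrays, which did not overlap. This sum weighs bright genes most. Chga was the brightest of the 12, with a mean log2 expression of 12.45 in N1ICD cells and 11.81 in control cells. The part of these marker changes in the collagen values was not tested.

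Of 17 fibroblast markers 13 lay below every array median in control cells, 1 rose (Pdgfrb, 0.89) and 1 fell (Pdgfra, -0.74, a call lost without N1ICD replicates 1 or 2 or control replicates 2 or 3, adjusted p up to 0.0736). Their summed linear level was 1986 to 2045 in N1ICD arrays and 1939 to 2084 in control arrays.

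Of 10 endothelial markers 8 lay below every array median in control cells, and 2, the growth factor receptors Kdr (3.04 ± 0.17) and Tek (1.06 ± 0.14), rose. The summed linear level was 1426 to 1890 in N1ICD arrays and 606 to 675 in control arrays. Without Kdr and Tek, chosen after their values were seen, the sums of the other 8 were 295 to 337 in N1ICD arrays and 304 to 329 in control arrays. These sums overlapped, but the 2 genes were left out because they rose, so the overlap is no test of cell types. The log2 changes of these other 8 lay between -0.08 and 0.30, with -0.01 for Cdh5 and 0.07 for Pecam1. Of 8 macrophage markers 7 lay below every array median, and Lyz2 rose by 0.52, a call lost without each of the 6 arrays (adjusted p up to 0.11). The summed macrophage level was 277 to 287 in N1ICD arrays and 286 to 303 in control arrays. The part of Kdr-positive, Tek-positive or Pdgfrb-positive cells in the collagen values was not tested.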

How the data were processed

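Total RNA of 6 samples was measured, 1 array per sample. The values are the log2 expression the authors deposited after RMA (background correction, quantile normalization and summary per probe set), per the submitters' processing notes. No source used here gives RMA's version, the base of its logarithm or the genome build. Base 2, RMA's own, was taken; the highest value, 14.1, is above what a natural logarithm of a scanner reading could reach (11.1). Of 41345 probe sets, 23521 carried 1 gene symbol, 1814 several and 16010 were not listed with a gene. The brightest single-symbol probe set over the 6 arrays stood for a gene; no dim genes were removed. Col1a2, Col5a1 and Col6a1 had a second probe set, with log2 changes of -0.03, -0.15 and 0.29.

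Groups came from the labels. For each gene N1ICD minus control was fitted in R 4.3.3 by limma 3.58.1 with a two-sided moderated test (lmFit, eBayes), Benjamini-Hochberg adjustment over 22180 genes and a threshold of 0.05. The fit was checked on simulated data, in which 67, 67 and 66 genes were given log2 changes of 0.5, 1 and 2. Of these, 20.9%, 77.6% and 98.5% were called, so a gene that was not called may still have changed. The simulated fit called 134 genes in all and the fit of the data 1574, so these shares need not hold for the data. ± is the SE of the fit unless marked SD. Tables were read in R with data.table, 1.17.8, and figures and counts were made with Python 3.11.15, pandas 2.3.3 and matplotlib 3.10.9. Summed linear levels add 2 to the power of each log2 value. Collagen classes, partner lists and marker lists were written by hand, and the members and lists were chosen with earlier results of these data known. Every collagen chain could be named, with all array values for called or separated chains and the 5 brightest in control; those of Col1a1, Col1a2 and Col6a1 were added after their values were seen. Of a partner list up to 4 called members by size were named. Serpinh1, Dcn, Nid2, Bmp1, P3h2, Colgalt1, Ddr2, Mrc2, Syp, Ncam1, Cdh5 and Pecam1 were added after their values were seen. So were Colgalt2, Sec23a, Itga2, Gp6, Tgfbi, Thbs1 and Comp. Plod3, Fkbp10, Adamts2, Loxl2, Itga10 and Calca were not analysed here. Promoter windows and letters are from RefSeq. The number of arrays limits the precision.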

Additional observations from a re-analysis of the deposited data

How the results depend on the processing

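The count of 4 collagen chains that rose, and of 0 that fell, was also found with quantile normalization again, equal array medians, the mean over probe sets, every probe set tested, an intensity trend with robust eBayes, array weights and, chosen after seeing the data, cyclic loess. At an adjusted p under 0.01 the count was 2 (Col23a1 and Col4a2). With 1 array left out 2 to 3 chains rose, 0 fell, and the median log2 change of the chains ran from -0.01 to 0.09. With dim genes left out 8 chains were tested, 4 rose and their median was 0.46; Col2a1, 1 of the 4, and Col6a1 passed that filter only through their N1ICD level, so this count and median are no support. With the replicate number as a replicate block 5 chains rose, the fifth being Col15a1 (adjusted p = 0.0347), and the median was 0.03; of the partner genes and markers Dcn was called with it (-0.65, adjusted p = 0.0359) and Ncam1 was not. In the labels, same-numbered arrays share only a number. Their deviations correlated at 0.23, 0.01 and 0.20 for replicates 1, 2 and 3. The best correlation of each N1ICD array with a control array of another number was -0.06, 0.02 and 0.06. N1ICD replicates 1 and 3 thus correlated best with their own number, and replicate 2 did not. Whether the arrays were made in pairs is not stated. Over all genes, 848 rose and 726 fell; these counts were 908 and 1289 with dim genes left out, 1049 and 1227 with an intensity trend, 460 and 208 at an adjusted p under 0.01, and 548 to 709 and 275 to 585 with 1 array left out. The cause of these differences was not tested.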
